A study of Mus musculus with 305 samples.

Results

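Gene expression in the prefrontal cortex (PFC) was compared between mice with a heroin history that were given heroin again and mice with the same history that were given saline. These are the libraries whose sample titles carry the region PFC and the group HH or HS: 8 HH and 8 HS libraries, 16 of the 51 PFC libraries and 5.25% of all libraries of the series, 1 per mouse. All animals of the series are wild-type male mice that self-administered saline or heroin intravenously for 15 d, and total RNA was sequenced from 6 brain regions. HH mice took heroin for 15 d, went through 30 d of withdrawal and received a heroin challenge with a 2 h drug-seeking test, and HS mice differ from them by a saline challenge in place of heroin. The labels give no dose, age or strain. The 8 SH and 8 SS mice took saline for 15 d and after the same withdrawal and test received heroin (SH) or saline (SS), so that SH against SS gives the response to a first heroin challenge. NAc and dStri libraries of the same HH and HS mice were set beside those of PFC. The comparison of HH with HS asks what heroin re-exposure does to the cortical transcriptome when drug history and test are held the same.

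Heroin acts through its metabolites on the mu opioid receptor, a receptor coupled to inhibitory G proteins, and the prefrontal cortex is a region through which cues and drug priming drive the return to drug seeking. Neurons that become active transcribe immediate early genes within minutes: transcription factors of the FOS, EGR and NR4A families first, and then effectors such as Arc and Bdnf that act at synapses. Calcium and growth factor signals reach these genes through the MAP kinases ERK1 and ERK2, and the same signal induces its own brakes, among them the dual-specificity phosphatase DUSP6, the Sprouty and SPRED proteins.

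Library totals ran from 22.92 to 39.47 M (mega) counts in HS (median 31.16) and from 26.37 to 40.81 M in HH (median 34.36). No library appeared to be a duplicate deposit, since the 56 pairs of HH or HS libraries differed by a chi-square per degree of freedom of at least 8.33 (median 25.4). The median rank correlation of a library with the others lay between 0.974 and 0.983 in all 4 groups. Markers of cortical excitatory neurons averaged 5.53 to 5.83 log2 CPM (counts per M counts of the scaled library) in the 16 PFC libraries against 0.58 to 3.77 in NAc and 0.92 to 3.46 in dStri, and markers of striatal projection neurons 3.09 to 4.03 against at least 8.16 in both striatal regions, so the label and the markers match. Slc17a7, a marker of cortical projection neurons, reached a median of 1326 CPM in HS and 1417 CPM in HH. The p-values below measure the spread between mice. In bulk tissue, fewer cells of a type and less RNA per cell cannot be told apart.

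Of 19976 genes tested with edgeR, 3 passed an adjusted p under 0.05 (0.015% of genes), and all 3 rose in HH: Dusp6, Zswim6 and Fosl2. Calls below are those of edgeR where no other tool is named. The promoters of these 3 genes and of 3 well studied immediate early genes, Egr2, Nr4a1 and Fos, are printed here because those 6 genes carry the account that follows. Each is the 250 bases upstream of a start site listed by RefSeq (GRCm38.p6), read 5′ to 3′ along the gene's strand, and capitals mark motif matches on either strand.
Dusp6, chr10:99262981-99263230, plus strand: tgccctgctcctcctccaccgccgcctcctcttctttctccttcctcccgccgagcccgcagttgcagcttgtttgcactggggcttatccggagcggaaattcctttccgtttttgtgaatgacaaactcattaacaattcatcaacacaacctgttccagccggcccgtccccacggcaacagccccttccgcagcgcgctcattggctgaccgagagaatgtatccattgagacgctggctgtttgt
Fosl2, chr5:32136222-32136471, plus strand: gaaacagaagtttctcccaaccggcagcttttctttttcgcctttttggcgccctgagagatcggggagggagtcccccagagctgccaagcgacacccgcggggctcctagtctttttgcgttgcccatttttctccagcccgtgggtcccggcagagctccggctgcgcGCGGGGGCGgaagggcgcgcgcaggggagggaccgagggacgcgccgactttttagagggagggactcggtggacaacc
Zswim6, chr13:107890065-107890314, minus strand: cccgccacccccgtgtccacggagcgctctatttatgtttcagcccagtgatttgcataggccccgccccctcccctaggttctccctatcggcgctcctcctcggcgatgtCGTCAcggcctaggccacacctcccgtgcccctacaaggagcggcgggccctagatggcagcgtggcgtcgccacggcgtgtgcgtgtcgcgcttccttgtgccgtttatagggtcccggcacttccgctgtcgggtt
Egr2, the third of 5 listed start sites, chr10:67537619-67537868, plus strand: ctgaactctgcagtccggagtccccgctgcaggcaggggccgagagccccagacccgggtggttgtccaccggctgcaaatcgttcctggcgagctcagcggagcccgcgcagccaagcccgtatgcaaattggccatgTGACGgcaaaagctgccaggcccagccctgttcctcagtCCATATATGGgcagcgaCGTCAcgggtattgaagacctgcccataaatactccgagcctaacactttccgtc
Nr4a1, chr15:101266596-101266845, plus strand: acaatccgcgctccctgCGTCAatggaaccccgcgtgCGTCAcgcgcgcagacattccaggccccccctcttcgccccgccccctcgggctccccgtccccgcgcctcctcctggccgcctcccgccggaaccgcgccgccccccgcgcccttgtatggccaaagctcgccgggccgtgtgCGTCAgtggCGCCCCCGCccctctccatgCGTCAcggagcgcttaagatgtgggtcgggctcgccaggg
Fos, chr12:85473640-85473889, plus strand: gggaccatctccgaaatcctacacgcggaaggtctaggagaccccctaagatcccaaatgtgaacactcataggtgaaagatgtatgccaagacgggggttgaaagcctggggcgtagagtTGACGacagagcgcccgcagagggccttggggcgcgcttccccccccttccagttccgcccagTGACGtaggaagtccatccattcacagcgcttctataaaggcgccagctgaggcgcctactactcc

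The motifs searched were TGACG (the core of the cyclic AMP response element, bound by CREB), TGANTCA (the AP-1 site, bound by FOS and JUN dimers), GCGNGGGCG (the site of EGR factors) and the CArG box, bound by serum response factor. They can overlap each other. Among 32851 promoter windows of the same length, 17.8% held the TGACG core, 6.75% an AP-1 site, 4.7% an EGR site and 1.47% a CArG box. The Fos window held 2 TGACG cores, the nearer 66 bases upstream of the start, and the Nr4a1 window held 4 of them and an EGR site. The printed Egr2 window held 2 TGACG cores on either side of a CArG box 72 bases upstream. Of the 5 listed Egr2 windows, which partly overlap, 4 held a CArG box and 3 a TGACG core, and the first held none of the 4 motifs. The Fosl2 window held an EGR site 79 bases upstream and the Zswim6 window a TGACG core near its middle. None of the 4 motifs was in the Dusp6 window, which says only that these letters are absent there. For Fosl2, Nr4a1 and the printed Egr2 window the RefSeq start lies inside the longer gene of the GENCODE M21 annotation.

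Dusp6 encodes the cytoplasmic phosphatase that removes phosphate from ERK1 and ERK2 (ENSMUSG00000019960, chr10:99263231-99267489, plus strand, GRCm38). Its level ran from 55.7 to 94.9 CPM in the 8 HS libraries (mean 76.9 ± 12.7, SD, n = 8) and from 90.8 to 124.7 CPM in the 8 HH libraries (mean 106.5 ± 10.0, SD, n = 8). The groups overlapped by a single HH library, and 7 of 8 HH libraries lay above every HS library. Dusp6 rose by 0.47 ± 0.073 on the log2 scale (SE; edgeR adjusted p = 0.0021).

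Zswim6, a gene of a SWIM-type zinc finger protein with a known part in brain development (ENSMUSG00000032846, chr13:107724617-107890064, minus strand), was at 27.5 to 34.5 CPM in HS (median 30.4) and 33.8 to 45.2 CPM in HH (median 38.4). Again 7 of 8 HH libraries lay above every HS library. The rise was 0.33 ± 0.060 (SE; edgeR adjusted p = 0.0125).

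Fosl2 encodes FRA2, a FOS-family partner of JUN in the AP-1 factor (ENSMUSG00000029135, chr5:32135801-32157842, plus strand). It was at 71.5 to 104.6 CPM in HS (median 85.3) and 94.2 to 135.1 CPM in HH (median 116.1), and 6 of 8 HH libraries lay above every HS library. The rise was 0.40 ± 0.077 (SE; edgeR adjusted p = 0.0428). This call was the least secure of the 3: with each library left out in turn, Fosl2 passed in 6 of 16 fits, Zswim6 in 14 of 16 and Dusp6 in 16 of 16, and each kept its direction. The count of called genes was 1 without HS mouse 3 or HH mouse 7, 6 without HH mouse 5 and 8 without HS mouse 2. DESeq2 called 16 genes on the same libraries, 14 higher and 2 lower, among them Dusp6, Zswim6, Fosl2, Egr2, Bdnf, Spry2 and Nr4a1. With only the HH and HS libraries in the fit, Dusp6 and Zswim6 missed the threshold (adjusted p = 0.0736 and 0.0588), and of the 3 genes that passed there only Fosl2 was among these.

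**Figure D1:**
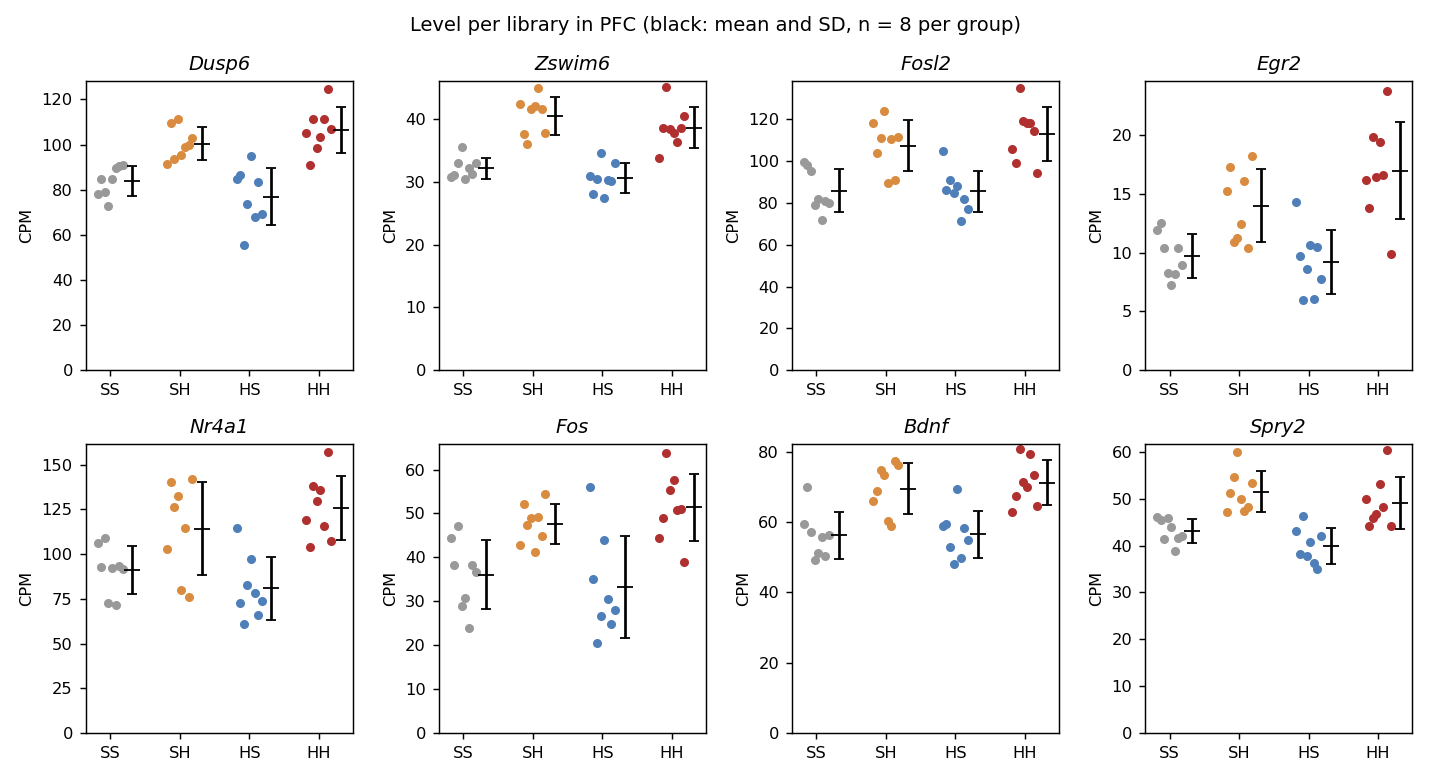
Level of 8 genes in each PFC library in CPM (linear axis from 0), by group, with the mean and SD of 8 mice in black. For Dusp6 and Zswim6, 7 of 8 HH libraries lie above every HS library, and SH stands against SS in the same direction as HH against HS.

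Among the 23 activity-induced transcription factors listed and measured, 21 had a higher fitted level in HH and 2 a lower one. Over all 19976 genes tested, 9422 were higher and 10554 lower, which is the background for the list counts below. With edgeR only Fosl2 passed over all genes, and DESeq2 also called Egr2 and Nr4a1. By edgeR, 12 of 23 had an unadjusted p under 0.05, all higher in HH, where 3.21% of all genes tested did. The median log2 difference of the list was 0.38, against -0.0088 over all genes. Egr2, an EGR-family zinc finger factor, had the largest difference of the list and came closest to the threshold among the uncalled genes. It was at 5.98 to 14.4 CPM in HS (median 9.15) and 9.90 to 23.7 CPM in HH (median 16.5), with 6 of 8 HH libraries above every HS library, a log2 difference of 0.88 ± 0.17 and an edgeR adjusted p of 0.0596. Nr4a1, an orphan nuclear receptor, was at 61.2 to 114.9 CPM in HS (median 76.02) and 103.8 to 157.0 CPM in HH (median 124.4), a log2 difference of 0.64 ± 0.14 (adjusted p = 0.180). The highest HS library for Egr2, Nr4a1, Fosl2 and Fos was the same one, HS mouse 2.

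Fos itself was at 20.5 to 56.1 CPM in HS (median 29.3) and 39.0 to 63.7 CPM in HH (median 50.9). Its log2 difference was 0.63 ± 0.16 (adjusted p = 0.345), with all 8 HH libraries above the HS mean and only 2 above the highest HS library. Its relatives Fosb (0.47) and Junb (0.39) had smaller positive differences. The EGR genes Egr1 (0.45), Egr3 (0.27) and Egr4 (0.41) and the nuclear receptor gene Nr4a3 (0.41) were of the same sign. Npas4, a factor that responds to calcium entry into neurons, had a difference of 0.52 ± 0.23. Against these, Nr4a2 (0.13), Jun (0.09) and Ier5 (0.08) had small differences, and the 2 lower members were Jund (-0.36) and Fosl1 (-0.06). Csrnp1 (0.24), Ier2 (0.32), Klf4 (0.36), Maff (0.40), Atf3 (0.38), Klf10 (0.11) and Btg2 (0.05) complete the list. None of these genes passed over all genes with edgeR on all libraries; Fos passed without HS mouse 2 (adjusted p = 0.0117).

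The 22 measured effectors of activity gave a similar count. An unadjusted p under 0.05 was reached by 10 of 22, all higher in HH, against 3.21% of all genes. In 21 of 22 the fitted level was higher in HH, and the median difference was 0.21. None passed over all genes with edgeR, and DESeq2 called Bdnf, Ptgs2 and Trib1. Bdnf, the gene of a growth factor released at active synapses, was at 48.1 to 69.5 CPM in HS (median 56.7) and 62.9 to 80.6 CPM in HH (median 70.6), a log2 difference of 0.33 ± 0.072 (adjusted p = 0.110). Arc, whose protein controls the removal of AMPA receptors from synapses, was the most abundant of the strongly different ones. It ran from 116.3 to 304.4 CPM in HS (median 199.0) and from 268.9 to 386.1 CPM in HH (median 325.3), a difference of 0.61 ± 0.15 (adjusted p = 0.345). Trib1, a pseudokinase gene, had a difference of 0.52 ± 0.12, with 7 of 8 HH libraries above every HS library. Ptgs2, which encodes the inducible cyclooxygenase of prostaglandin synthesis, had 0.37 ± 0.086. Inhba, the gene of an activin subunit, had 0.40. The synaptic scaffold gene Homer1 (0.21), the prohormone convertase gene Pcsk1 (0.15) and Rgs4 (0.14), a regulator of G proteins, had smaller differences, and Rheb (-0.002) was the 1 member on the other side of 0.

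Of 14 MAP kinase feedback genes, 12 were higher in HH, 8 of them with an unadjusted p under 0.05, against 3.21% of all genes. Dusp6 was called, and the median difference of the list was 0.21. Spry2, a Sprouty inhibitor of receptor signalling, was at 35.0 to 46.2 CPM in HS (median 39.5) and 44.1 to 60.5 CPM in HH (median 47.4), a difference of 0.30 ± 0.064 (adjusted p = 0.110). The SPRED genes Spred2 (0.28) and Spred3 (0.21), the Sprouty gene Spry4 (0.38) and the phosphatase genes Dusp4 (0.33), Dusp1 (0.31) and Dusp7 (0.18) made up the rest of the 8. Etv5, Spred1, Dusp5 and Errfi1 lay between 0.02 and 0.22. The lower members were Spry1 (-0.08) and Dusp2 (-0.67 ± 0.40), the latter at a mean of only 0.82 CPM.

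**Figure D2:**
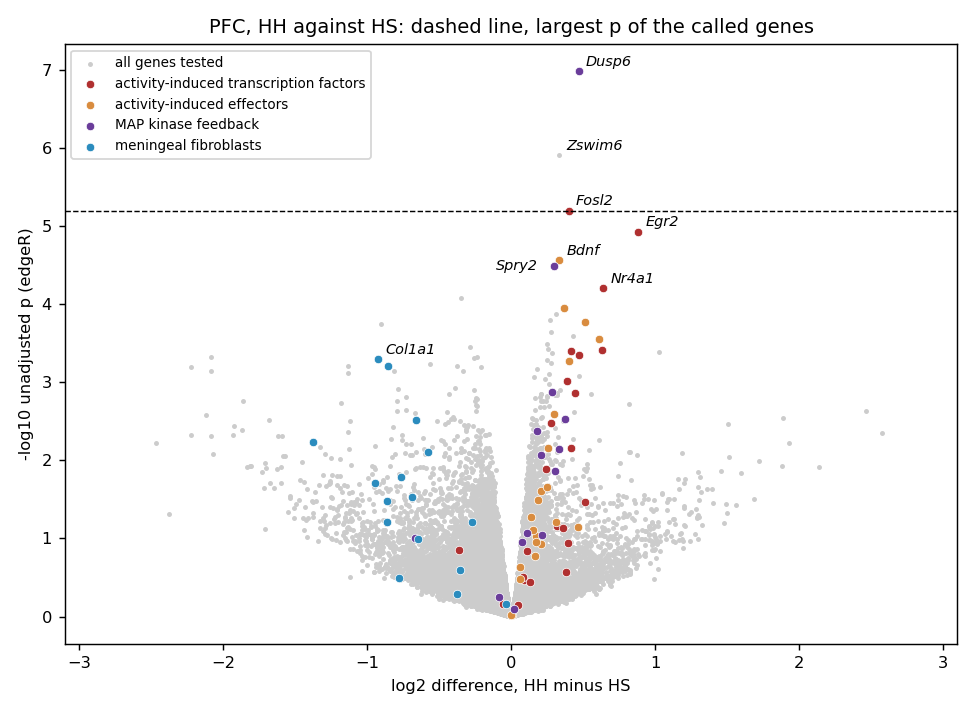
Log2 difference of HH minus HS in PFC (x axis) against -log10 of the unadjusted edgeR p (y axis) for all 19976 genes tested, with 4 gene lists in colour. Only Dusp6, Zswim6 and Fosl2 reach the dashed line, and the 3 activity lists lie mostly to the right of 0 while the meningeal fibroblast genes lie to the left.

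No gene passed as lower in HH with edgeR, while DESeq2 called Bend5 and Gjb2 as lower (adjusted p = 0.0183 and 0.0282). In all, 642 genes had an unadjusted p under 0.05 with a higher level in HH and 644 (3.22%) with a lower one. The lower genes with the smallest p were of mixed kinds. Bend5, which encodes a BEN-domain protein, was at 13.2 to 16.7 CPM in HS and 9.54 to 12.2 CPM in HH, without overlap, a log2 difference of -0.35 ± 0.081 (edgeR adjusted p = 0.211). Gjb2, a connexin gene expressed in the meninges, had -0.91 ± 0.22, and Col1a1, the gene of the main chain of fibrillar collagen I, had -0.92 ± 0.24. Col1a1 ran from 3.27 to 7.74 CPM in HS and from 1.33 to 3.23 CPM in HH, again without overlap, though by a narrow margin. On unscaled library totals the lowest HS library was at 3.20 CPM and the highest HH library at 3.33 CPM, so the groups overlapped there. Serpinf1 (-0.56), Stx2 (-0.37), Rp9 (-0.26), Echs1 (-0.24) and the ribosomal protein gene Rpl23a (-0.28), whose reads may be shared with near-identical copies, complete the 8 lower genes with the smallest p. Full separation of the 2 groups was rare: every HH library lay below every HS library in 4 genes (0.02% of those tested), Bend5, Col1a1, Rps6 and Pgam2, and above in 4 (0.02%), Palm2, Mn1, Mllt1 and Gm6225. Rps6, which may share reads with copies, Pgam2, Mn1, Mllt1 and Gm6225 are named for this count alone, after their values were seen.

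Markers of other cell types differed beside these genes. All 16 meningeal fibroblast markers measured had a lower fitted level in HH, with a median of -0.73. An unadjusted p under 0.05 was reached by 9 of them, where 3.22% of all genes were lower at that threshold. Their mean log2 CPM per library ran from 1.37 to 3.01 in HS and from 0.63 to 2.49 in HH, and 7 of 8 HH libraries lay below the HS mean. Ogn (-1.38), Dcn (-0.85) and Igf2 (-0.66) were among them. All 15 oligodendrocyte markers were lower as well, with a median of -0.31 and only Aspa under an unadjusted p of 0.05, and their mean ran from 4.74 to 5.97 in HS and from 4.44 to 5.70 in HH. The 8 measured choroid plexus markers had a median of -0.41, with Ttr at 0.05 to 11.0 CPM in HS and 0.11 to 5.56 CPM in HH, and the 8 measured blood markers -0.28. Cortical excitatory neuron markers differed little, with a median of 0.08 and 6 of 11 higher, and no defining marker of these types was at 0 in any library. The medians were -0.26 for 8 ependymal, -0.13 for 13 striatal neuron, -0.12 for 16 endothelial and mural, -0.09 for 15 microglial, -0.10 for 12 deep layer, -0.05 for 10 oligodendrocyte precursor, -0.02 for 15 astrocyte, 0.05 for 16 interneuron and 0.10 for 10 upper layer markers.

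With the oligodendrocyte and the meningeal score of each library as covariates, 1 gene was called, Dusp6 (log2 difference 0.47, edgeR adjusted p = 0.0188). Zswim6 kept a difference of 0.31 and Fosl2 of 0.39 but missed the threshold (adjusted p = 0.1441 for both). Egr2 stood at 1.04, Nr4a1 at 0.67 and Bdnf at 0.34, while Col1a1 moved to -0.57 and Gjb2 to -0.49. With these scores held constant, the differences of Dusp6, Zswim6, Fosl2, Egr2, Nr4a1 and Bdnf were about as large. The other named activity genes were in the same fits, and only their lowest values over all alternatives are given here. Spry2 went down to 0.23 and Spred2 to 0.19, each below the 0.25 that was its lowest with single libraries left out. Trib1, Ptgs2 and Fos did not go below 0.46, 0.34 and 0.56. Unnamed members of the activity lists were not summarised this way. The differences of Col1a1 and Gjb2 were smaller by more than 1.5 times. Col1a1 is itself a member of the meningeal score, so part of its move was fixed in advance.

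**Figure D3:**
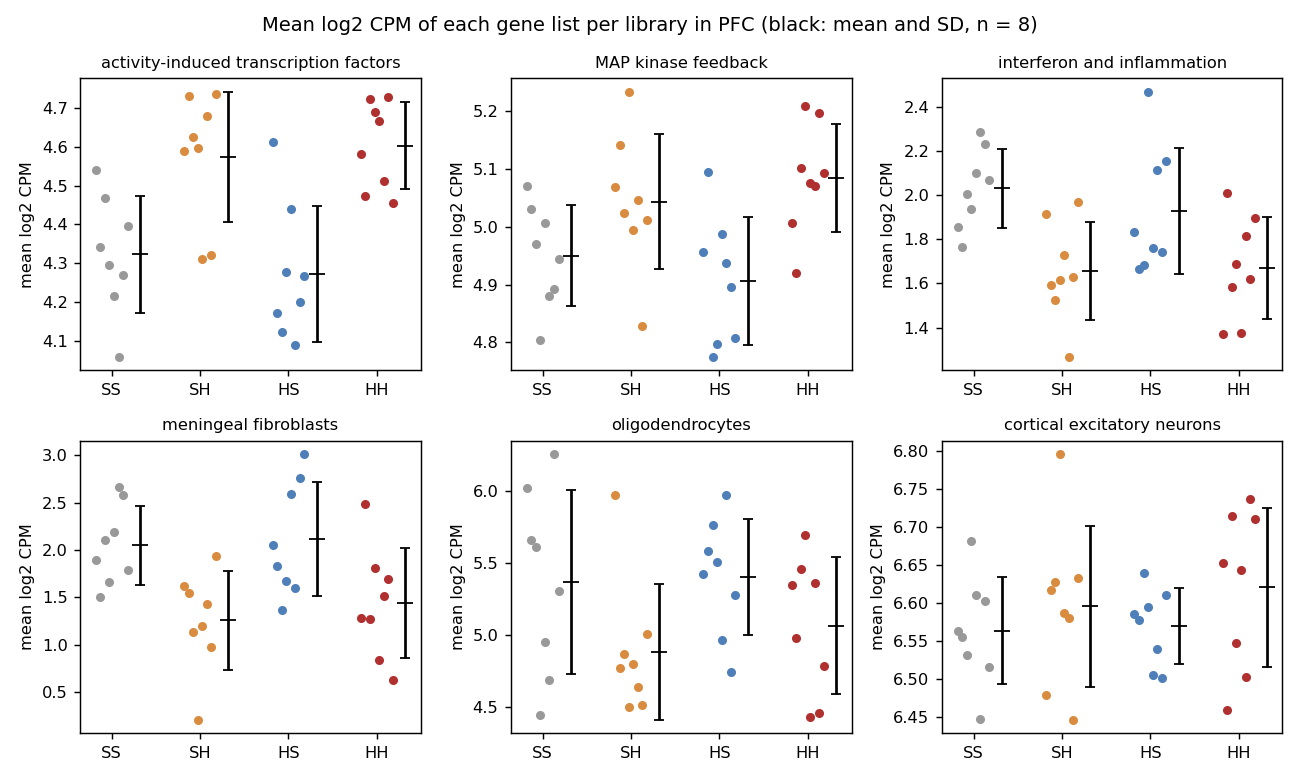
Mean log2 CPM of the members of 6 gene lists in each PFC library, by group, with the mean and SD of 8 mice in black (axes do not start at 0). The activity list is higher in both heroin-challenged groups, HH and SH, and the meningeal, oligodendrocyte and inflammation lists are lower in both on average, with overlap in each.

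Genes of the interferon response and inflammation had the opposite sign to the activity genes. Of 22 measured, 19 were lower in HH and 3 higher, with a median of -0.22 and none called. With an unadjusted p under 0.05, 5 were lower, against 3.22% of all genes. The complement gene C4b (-0.61 ± 0.20), the interferon-induced genes Ifit3 (-0.39), Ifit1 (-0.54) and Oasl2 (-0.95) and Ifitm3 (-0.40) were the 5. C4b ran from 9.17 to 32.0 CPM in HS and from 10.5 to 16.9 CPM in HH, so the HH libraries lay within the HS range. The list's mean per library lay below every HS library in 4 of 8 HH mice, and it moved in the same direction as the meningeal score. With the oligodendrocyte and meningeal scores as covariates, C4b stood at -0.36 and Ifit3 at -0.18, smaller by more than 1.5 times; the list as a whole was not fitted this way.

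Chaperone genes leaned upward, with 16 of 21 higher in HH and a median of 0.14. With an unadjusted p under 0.05, 7 were higher, against 3.21% of all genes. Among the 7 were the inducible HSP70 gene Hspa1a (0.45 ± 0.20), Hspb1 (0.40), the cochaperone Dnajb1 (0.21) and Manf (0.21), a factor of the endoplasmic reticulum. Cirbp, an RNA-binding protein gene that is induced by cold, was the 1 lower member under that threshold (-0.25 ± 0.075; edgeR adjusted p = 0.475). Of 20 clock genes, 6 had an unadjusted p under 0.05, all higher, against 3.21% of all genes, with a median over the list of 0.07. These were Bhlhe40 (0.27), Per1 (0.34), Per2 (0.24), Nfil3 (0.26), Hlf (0.21) and Rora (0.23), while the core factors Clock (0.06), Arntl (0.09) and Cry1 (-0.01) differed little. Per1 and Bhlhe40 are also known as activity-induced genes; Per1 ran from 69.8 to 94.1 CPM in HS and from 90.7 to 122.7 CPM in HH. None of these genes was called.

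Receptors and transmitter systems differed less. Over all genes tested, 9422 were higher and 10554 lower, and 3.21% were higher and 3.22% lower at an unadjusted p under 0.05. Of 8 opioid peptide and receptor genes, 4 were higher and 4 lower, with 0 under an unadjusted p of 0.05 and the largest difference was 0.10. Oprm1, the mu opioid receptor, was at 3.12 to 5.54 CPM in HS (median 4.71) and 4.03 to 6.85 CPM in HH (median 4.58), a log2 difference of 0.10 ± 0.16. It was 0.030 without HH mouse 1, the highest library, 0.055 without HS mouse 3, 0.16 without HS mouse 20 and 0.20 with the oligodendrocyte and meningeal scores as covariates, and the HH median lay below that of HS. Among 34 genes of opioid receptor signalling, 1 had an unadjusted p under 0.05, Gnao1 (0.15), which is near the share over all genes. Of 12 dopamine genes, 10 had a lower fitted level in HH, among them Drd1 (-0.23) and Drd2 (-0.37), with 0 under an unadjusted p of 0.05. Of 22 glutamate receptor genes, 18 were higher, with a median of only 0.03; the AMPA receptor subunit Gria3 (0.12) and the NMDA receptor subunits Grin2a (0.16) and Grin2b (0.16) had an unadjusted p under 0.05. Of 20 GABA genes, 16 were higher with a median of 0.07, led by the receptor subunit Gabra2 (0.21) and the GABA-B receptor Gabbr2 (0.12). With the same 2 scores as covariates, Gnao1 stood at 0.068, Grin2a at 0.046, Gabbr2 at 0.052 and Tnr at 0.12, each smaller by more than 1.5 times. In the perineuronal net list, Tnr (0.18) and the proteinase gene Mmp9 (-0.77, at a mean of 0.73 CPM) each had an unadjusted p under 0.05.

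Glucocorticoid-responsive genes showed no common direction, with 12 of 25 higher and 13 lower and a median of -0.0006. Fkbp5, the cochaperone that is a standard readout of the glucocorticoid receptor, was at 32.8 to 46.2 CPM in HS and 33.8 to 42.9 CPM in HH, a log2 difference of 0.02 ± 0.079. Angptl4 (-0.73) and Bcl6 (0.22) had the smallest p of the list, in opposite directions. In the thyroid hormone list, Dio2, which encodes the enzyme that activates thyroid hormone in glia, was at 80.96 to 153.9 CPM in HS (median 128.5) and 137.2 to 184.9 CPM in HH (median 165.2), a difference of 0.43 ± 0.10 (edgeR adjusted p = 0.339). The transporter Slco1c1 had 0.26 and the thyroid hormone binding protein Crym -0.24. In the sphingolipid list the ceramidase gene Acer2 had -0.44 ± 0.17, with 4 of 8 HH libraries below every HS library, and Sptlc2 had -0.12. Among 30 chromatin and DNA methylation genes, Tet3 (0.30) and Hdac8 (-0.25) led, and the median was 0.03. The 15 hypoxia and glycolysis genes had a median of 0.004 and 0 under an unadjusted p of 0.05.

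The same challenge given for the first time, in mice with a saline history, served as a comparison that shares no mice with HH and HS. For SH against SS, 2 genes were called (0.01%): Zswim6 rose by 0.33 ± 0.060 (edgeR adjusted p = 0.0139) and Acer2 fell by 1.10 on the log2 scale (adjusted p = 0.0055). At an unadjusted p under 0.05, 497 genes (2.49%) were higher and 560 (2.8%) lower in SH. The rise of Zswim6 was of the same size after either history, 30.4 to 35.5 CPM in SS against 36.1 to 44.9 CPM in SH. Dusp6 had 0.26 ± 0.073, Fosl2 0.32 ± 0.077, Egr2 0.52 ± 0.17, Nr4a1 0.33 ± 0.14 and Fos 0.41 ± 0.16. In the activity lists, 13 of 23 transcription factors, 15 of 22 effectors and 6 of 14 MAP kinase feedback genes were higher in SH with an unadjusted p under 0.05. The glucocorticoid-responsive list, without a common direction in HH, had 21 of 25 genes lower in SH and 4 higher, with a median of -0.12. An unadjusted p under 0.05 was reached by 7 of the lower and 1 of the higher ones. The glial and meningeal markers were lower here too, with a median of -0.89 for the 16 meningeal and -0.53 for the 15 oligodendrocyte genes; their part in the result was not tested.

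Across the 59 genes of the 3 activity lists, the log2 differences of HH minus HS and SH minus SS had a Pearson correlation of 0.458 and a Spearman correlation of 0.568, and 50 (84.7%) had the same sign. Over all 19976 genes the values were 0.118 and 0.176, with 58.1% of the same sign. These are descriptions across genes, which are not independent replicates, and both comparisons rest on libraries of the same region and preparation, with median totals of 25.35 M counts in SS and 31.39 M in SH. The difference between the responses was tested by the interaction, HH minus HS minus the same for SH and SS. No gene passed (0%), while 639 (3.2%) had an unadjusted p under 0.05, and with DESeq2 0 passed as well. The interaction was 0.21 ± 0.10 for Dusp6, 0.001 ± 0.084 for Zswim6, 0.08 ± 0.11 for Fosl2 and 0.36 ± 0.24 for Egr2 (adjusted p = 0.9998 for each). A larger activity response after a heroin history was thus not detectable with 8 mice per group. Acer2 had an interaction of 0.66 ± 0.24, with -0.44 after a heroin history against -1.10 after saline. In the glucocorticoid-responsive list, 4 of 25 genes had an unadjusted interaction p under 0.05, and the median interaction was 0.11.

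The 6 genes named for the smallest interaction p are given as a description, since that choice favours opposite signs after the 2 histories. Palm2 was at 10.3 to 12.8 CPM in HS and 13.0 to 16.3 CPM in HH, while its median was 13.5 CPM in SS and 11.5 CPM in SH, with overlap, which gave an interaction of 0.48 ± 0.13. Tmem53 had 1.43, at a mean of 1.39 CPM, and Fbxo42, an F-box gene, 0.27. In the other direction stood Cwc27 (-0.49), a splicing-associated cyclophilin gene, the pseudogene Scp2-ps2 (-0.85) and the small nuclear RNA gene Rnu12 (-1.38). None of the 6 passed over all genes.

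**Figure D4:**
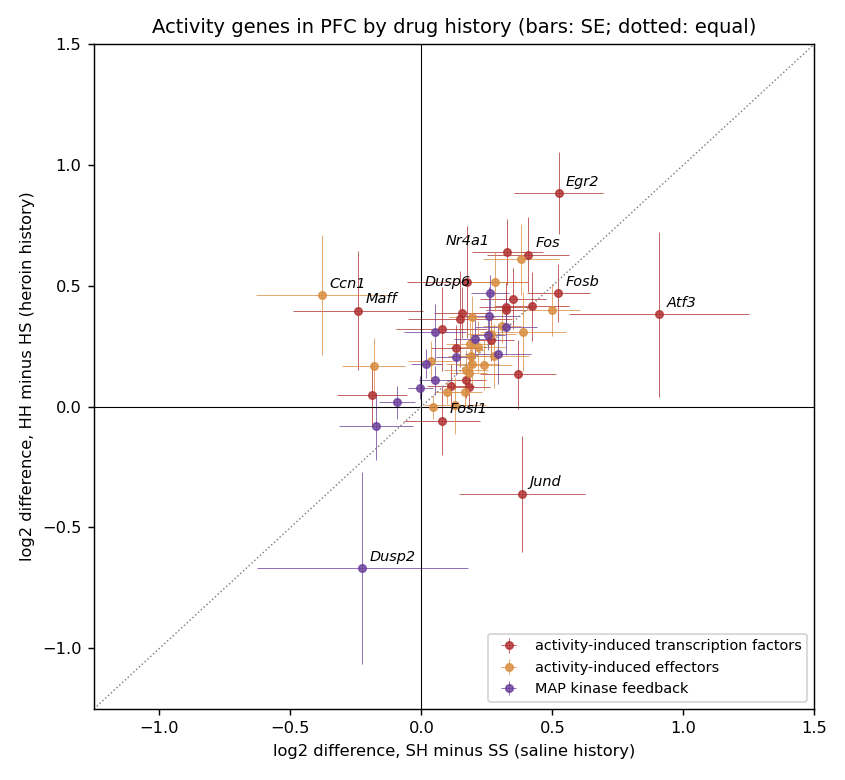
Log2 difference of SH minus SS (x axis, saline history) against that of HH minus HS (y axis, heroin history) in PFC for 59 genes of 3 activity lists, with bars of 1 SE and a dotted line where both are equal. Most points lie in the upper right, Egr2 farthest up, and 50 of 59 have the same sign.

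In the 2 striatal regions of the same HH and HS mice, no gene was called (0% in NAc and 0% in dStri, edgeR), and 509 and 828 genes had an unadjusted p under 0.05. Genes at that threshold with a higher level in HH made up 1.23% of those tested in NAc and 1.8% in dStri. Fosl2 had log2 differences of 0.50 ± 0.19 in NAc and 0.48 ± 0.13 in dStri, as large as the 0.40 of PFC, and Nr4a1 had 0.52 and 0.57. Dusp6 had 0.22 ± 0.12 and 0.32 ± 0.12, and Zswim6 0.12 ± 0.077 and 0.02 ± 0.084. Egr2 had 0.07 ± 0.26 in NAc, where it ran from 4.39 to 9.73 CPM in HS and from 4.32 to 11.4 CPM in HH, and 0.47 ± 0.25 in dStri. Of the 23 activity-induced transcription factors, 5 in NAc and 8 in dStri were higher with an unadjusted p under 0.05, against 12 in PFC. The effectors gave 0 of 22 in NAc and 2 of 22 in dStri, against 10 in PFC. The MAP kinase feedback genes gave 1 of 14 in NAc and 2 of 14 in dStri, against 8 in PFC.

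The difference between regions was tested with the mouse as a block. No gene passed for PFC minus NAc (0%; 783 genes, 3.89%, at an unadjusted p under 0.05) or for PFC minus dStri (0%; 687 genes, 3.42%). Egr2 came closest, with a response larger in PFC than in NAc by 0.86 ± 0.16 (edgeR adjusted p = 0.0976), and with an adjusted p of 1 without the block. Zswim6 had a PFC minus dStri difference of 0.31 ± 0.083 and Dusp6 a PFC minus NAc difference of 0.29 ± 0.11. For PFC minus NAc, 3 of 23 transcription factors, 5 of 22 effectors and 4 of 14 MAP kinase feedback genes had an unadjusted p under 0.05. For PFC minus dStri the counts of the same lists were 3, 6 and 2. Both directions are counted, and none of these genes was called. Ajap1 (0.34) stood with Egr2 on the higher side against NAc, and Col23a1 (-0.78) and Col1a1 (-1.253) on the lower side. In PFC, Col23a1 was at 6.49 and 6.69 CPM in HH mice 21 and 25 and at 15.0 to 24.1 CPM in the other 6 HH mice, against 14.9 to 23.9 CPM in HS. HH mice 21 and 25 also had the lowest deep layer scores of the 16 libraries, 4.50 and 4.77 log2 CPM. They are the HH mice of the second mouse set described below. The part of the scores and of the mouse set in the difference was not tested. Against dStri, Acvrl1 (0.41) was the other gene on the higher side, and Litaf (-0.57) and Svil (-0.50) were on the lower side. The activity response was therefore not shown to be particular to PFC.

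**Figure D5:**
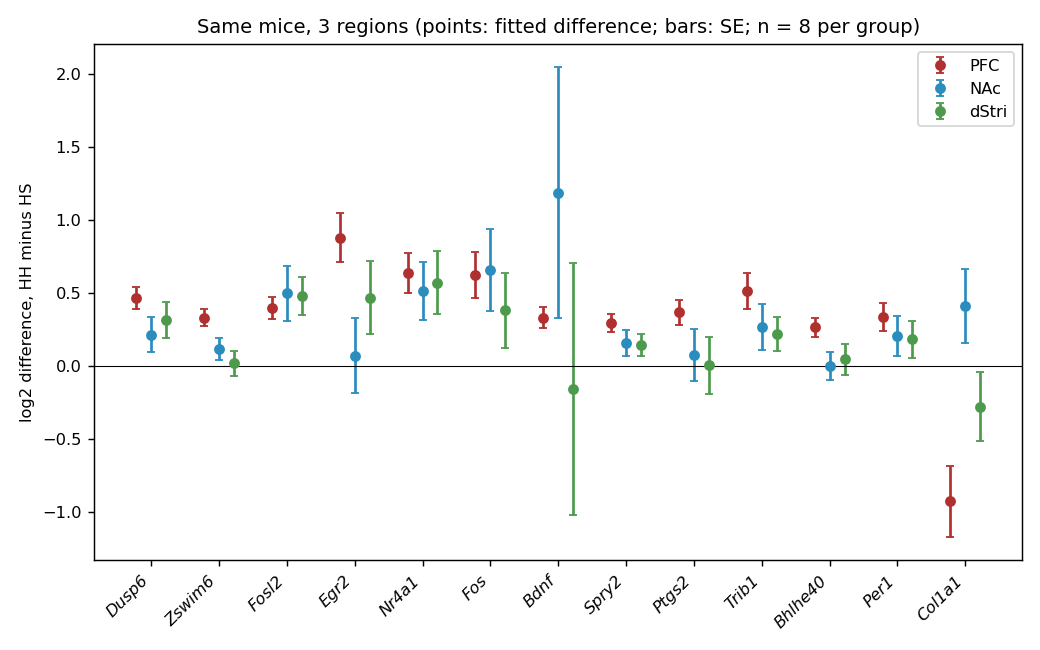
Fitted log2 difference of HH minus HS for 13 genes in PFC, NAc and dStri of the same mice, with bars of 1 SE and 8 mice per group. Fosl2 and Nr4a1 have similar values in the 3 regions, while Egr2 is near 0 in NAc and Bdnf is poorly measured in both striatal regions.

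The mice fell into 2 sets by the sample code of their amygdala (BLA) libraries, 6 HH and 6 HS in the first and 2 and 2 in the second. The mean log2 difference of HH minus HS within the first and the second set was 0.44 and 0.61 for Dusp6, 0.34 and 0.33 for Zswim6, 0.41 and 0.39 for Fosl2, and 0.94 and 0.76 for Egr2. With the set as a covariate, 3 genes were called, again Dusp6, Zswim6 and Fosl2. Mitochondrial genes took 1.95 to 5.19% of counts in HS and 2.03 to 5.07% in HH.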

How the data were processed

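Total RNA was extracted with Qiagen kits, and strand-specific libraries depleted of ribosomal RNA were sequenced as paired reads of 150 bp, per the labels' protocols. FastQC, HISAT2, SAMtools, HTSeq and the mm10 genome are named in the submitters' processing notes; their versions and settings, and the authors' annotation release, are not given in the sources used here. The authors deposited raw counts of reads per gene (52636 genes, with 0 columns without a sample), and 7 further deposited files were not used here. Column codes were matched to sample titles.

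The members and the 31 gene lists were chosen with earlier results of these data known. Genes passing filterByExpr (minimum count 10) were scaled by TMM and fitted over the 32 PFC libraries of the 4 groups (28 residual degrees of freedom) with edgeR 4.0.16 (robust quasi-likelihood test, R 4.3.3), with p-values adjusted by Benjamini-Hochberg over all genes tested and called under 0.05. Levels are CPM on TMM-scaled library sizes, and scores are means of log2 CPM with a prior count of 1. The marker averages that check the region labels were computed separately from these scores. Regions were compared with the mouse as a block, since the libraries come from the same animals. Named genes were the called genes, filled to 8 per direction with the smallest p (mean of at least 1 CPM, no clone names), up to 3 per list with an unadjusted p under 0.05, the 3 per direction with the smallest interaction p, the 2 per direction for each region difference, and Oprm1, Fos, Fkbp5, Acer2, Dio2 and Zswim6; other list members and markers are given as descriptions. Alternatives were RLE scaling, 2 other count filters, DESeq2 1.42.0, limma 3.58.1 (voom), covariates, fewer libraries and leaving out each library. Gene positions are from GENCODE M21 and promoters from RefSeq.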

Additional observations from a re-analysis of the deposited data

Results flagged for a closer look

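Among 168 groups of 8 libraries, 62 of them list scores and the others levels of named genes, 2 held a single library far from the other 7. In unselected groups, chance gives about 1 in 20, or 8.4 of these, and the 2 found are fewer. The groups share libraries and many of the genes were chosen by p, so the numbers compare only roughly. Acvrl1, the gene of an endothelial TGF-beta family receptor, was at 16.3 CPM in PFC of HH mouse 18, against 11.2 to 13.1 CPM in the other HH mice. The mean log2 CPM of endothelial and mural cell markers was 3.84 in HH mouse 16, below the 4.12 to 4.33 of the other HH mice.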

How the results depend on the processing

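The count of 3 genes called for HH against HS lay between 2 and 4 with RLE scaling, either other count filter, voom, the mouse set as a covariate or only the HH and HS libraries. It was 1 with oligodendrocyte and meningeal scores as covariates, 5 without the robust option of edgeR (chosen after seeing the data) and 16 with DESeq2, and ran from 1 to 8 with each library left out in turn; the cause was not tested. Dusp6 was called in 24 of 25 alternatives, Zswim6 in 21 and Fosl2 in 13, with an adjusted p of 0.001364 to 0.146 for Fosl2. Of 1312 alternative values for 56 pairings of a named gene with a comparison, 1309 kept their direction. The exceptions were Fkbp5, at -0.011 with voom, and from -0.0021 (without HS mouse 12; -0.0015 without HH mouse 16) to 0.076 with each library left out. The interaction gave 0 genes in all 40 alternatives.

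The region differences gave 0 genes without the replicate block too, with 691 genes at an unadjusted p under 0.05 for NAc and 746 for dStri. Genes near 1 CPM, such as Dusp2, Mmp9 and Tmem53, are limited by depth.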
